A study of Mus musculus with 2 samples.

Results

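The complement genes of the liver were compared between Pgrmc1 KO and WT mice. The group held 33 genes of the deposited TPM table, which lists 24054 genes, and they were chosen by symbol as components of the classical, lectin, alternative and terminal pathways, their regulators and their receptors. All 33 were found. A gene is called measured where its level, averaged over both libraries, reached 1 TPM (a relative number of transcript copies, corrected for transcript length), as it did for 31 members and not for C7 and C5ar1.

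Complement is a set of plasma proteins, most of them made by hepatocytes, that tag and lyse microbes through a cascade of proteases. The classical pathway begins with C1q, which binds antibody, and the lectin pathway with collectins and ficolins, which bind sugars. Both lead to C4 and C2 and then to C3, which also starts and amplifies the alternative pathway with factors B and D, and cleaved C3 leads on to C5 and the membrane attack complex of C6 to C9. In the liver, C1q comes chiefly from macrophages, which include the resident Kupffer cells.

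Each genotype was represented by 1 library made from pooled liver RNA. Each pool came from 5 mice. The KO pool came from males with the genotype Pgrmc1 -/Y, in which Sox2-Cre had removed exons 1 and 2 of the X-linked gene from the whole body, and the WT pool from wild type males. All were C57BL/6 mice of 8 to 12 weeks, and 2.5 μg of RNA of each mouse entered its pool. The allele was made in C57BL/6N cells. The sources used here do not state whether the WT mice carried the Cre transgene. Because animals were mixed before sequencing, no difference given here has a replicate check, no p-value was computed, and the spread between mice is unknown.

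Pgrmc1 itself was at 0.68 TPM in the KO and 949.49 TPM in the WT library, as the KO label requires. The total of the table is 1005325.0 TPM for KO against 994702.2 for WT. A change is given as log2((KO TPM + 1)/(WT TPM + 1)), which understates the change of genes with low levels. Where a 95% interval is given, it is a Clopper-Pearson interval of the log2 ratio of the authors' library means, computed from estimated reads. These means are not TPM, so a change can lie just outside its interval, as that of C3 does. Such an interval covers counting error only, with no part for differences between mice. Of 20 hepatocyte markers, all were detected, with a median change of -0.03 and a sum of 111467.0 in KO against 114879.2 TPM in WT. At 1.2-fold, 3 of the 20 passed downward, with Ass1 lowest at -0.47, and 0 upward, against 5.51% and 5.39% of all measured genes.

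Complement transcripts were on the whole slightly higher in the KO library. Of the 31 measured members, 24 lay above 0 (77.4%), against 45.8% of all 11623 measured genes. Their median log2 change was 0.09, with quartiles of 0.02 and 0.14, and that of all these genes was -0.013, with quartiles of -0.10 and 0.08. Among abundant genes, at 200 TPM or more on average, 14 of 17 members and 53.9% of 568 genes lay above 0, with medians of 0.09 and 0.008. Most members thus lay well inside the fold thresholds that the study set for RNA.

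Few members passed a threshold of size. At a fold of at least 1.4, 1 of the 31 passed, Cfd, against 1.21% of all genes, and at a fold of at most 0.6 none did, against 0.301%. At 1.2-fold, 3 members passed upward (9.68%), Cfd, C3 and C3ar1, against 5.39% of all genes, and 0 passed downward, against 5.51%. C3 lay right at this threshold, with a fold that rounds to 1.2, and C1qa was the closest below it, at 1.184-fold. Thus both counts are small, and the second depends on where the line is drawn.

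Counting error was narrow for these mostly abundant genes. The interval lay above 0 for 19 members and below 0 for 2, Mbl2 and C6, against 11.7% and 13.4% of the 11543 measured genes that have estimated reads. Abundance itself narrows the interval: at 200 TPM and above, 43.3% of all genes lay above 0 in this sense and 22.9% below, and 14 and 2 of the 17 members did.

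**Figure D1:**
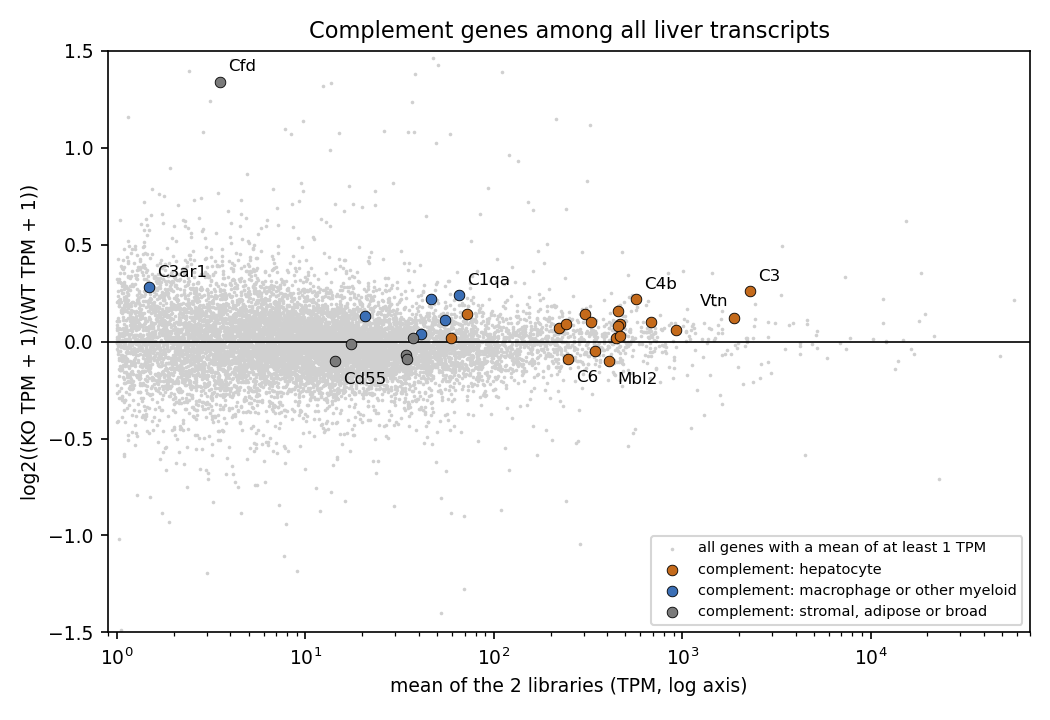
Each point is a measured gene, by its mean over both libraries (log axis) and its log2 change; grey points are all genes and coloured points the 31 complement genes by cell of origin, and 26 genes beyond 1.5 in either direction are not drawn. Most hepatocyte members sit above 200 TPM and just above the line at 0, while Cfd stands alone at 1.34.

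The summed level of the 33 genes was 11702.4 in KO against 10773.9 TPM in WT, a ratio of 1.09. Complement transcripts made up 1.16% of the KO and 1.08% of the WT table. C3 alone carried 44.9% of the difference of 928.5 TPM. Together with Vtn, Clu, Cfb and C4b, the next most abundant members, it carried 80.5%, and the other 28 genes had a summed ratio of 1.04.

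All 6 classical pathway members had a change above 0, as had the 4 members with C3 and the alternative pathway, although the intervals of C1qc and Cfp held 0. The classical members had a median change of 0.18, from 0.07 for C1ra to 0.24 for C1qa, and their sum was 1095.4 in KO against 966.8 TPM in WT. C1qa, C1qb and C1qc encode the A, B and C chains that assemble into C1q, the recognition molecule. C1qa stood at 71.10 in KO against 59.87 TPM in WT, a change of 0.24 (95% interval 0.14 to 0.40). C1qb was at 49.84 in KO against 42.57 TPM in WT, a change of 0.22 (0.09 to 0.40). C1qc was at 57.12 in KO against 53.04 TPM in WT, a change of 0.11, and its interval of -0.02 to 0.27 held 0. All 3 chains therefore lay on the same side, but only for the A and B chains was the difference larger than counting error. The ratio of C1qa to C1qb was 1.43 in KO and 1.41 in WT, and that of C1qb to C1qc was 0.873 and 0.803.

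The genes of the C1q chains lie in a row on chromosome 4 of GRCm38 (mm10), C1qb at 136880126 to 136886200, C1qc at 136889801 to 136892936 and C1qa at 136895916 to 136898844. The gaps between neighbours are 3.6 kb and 2.98 kb. None of the 100-base windows of their GENCODE transcripts was found in another gene.

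The proteases and substrates of this pathway come from hepatocytes. C4b, which encodes C4, the protein cleaved to begin the C3 convertase, was at 613.37 in KO against 525.66 TPM in WT, a change of 0.22 (0.22 to 0.25). C2, the protease subunit of that convertase, was at 75.87 in KO against 68.83 TPM in WT, a change of 0.14 (0.08 to 0.23). The smallest difference was that of C1ra, a protease of the C1 complex, at 228.08 in KO against 216.78 TPM in WT (0.07, 0.04 to 0.13). Its partner C1s1, which is no member, was level at 288.34 in KO against 288.15 TPM in WT.

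Near copies bear on C4b and C1ra. C4b shares 15.2% of its windows with C4a, the gene of the sex-limited protein, and C1ra shares 35.9% with C1rb and a further gene, so that RSEM may have split reads between them. C4a was lower in KO, at 4.31 TPM against 6.66 TPM in WT, a change of -0.53 (-0.82 to -0.42). C4a held 0.698% of the summed level of both genes in KO and 1.25% in WT, and that sum changed by 0.21, close to C4b alone. C1rb was at 0.05 in KO against 0.04 TPM in WT and left the change of C1ra at 0.07.

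**Figure D2:**
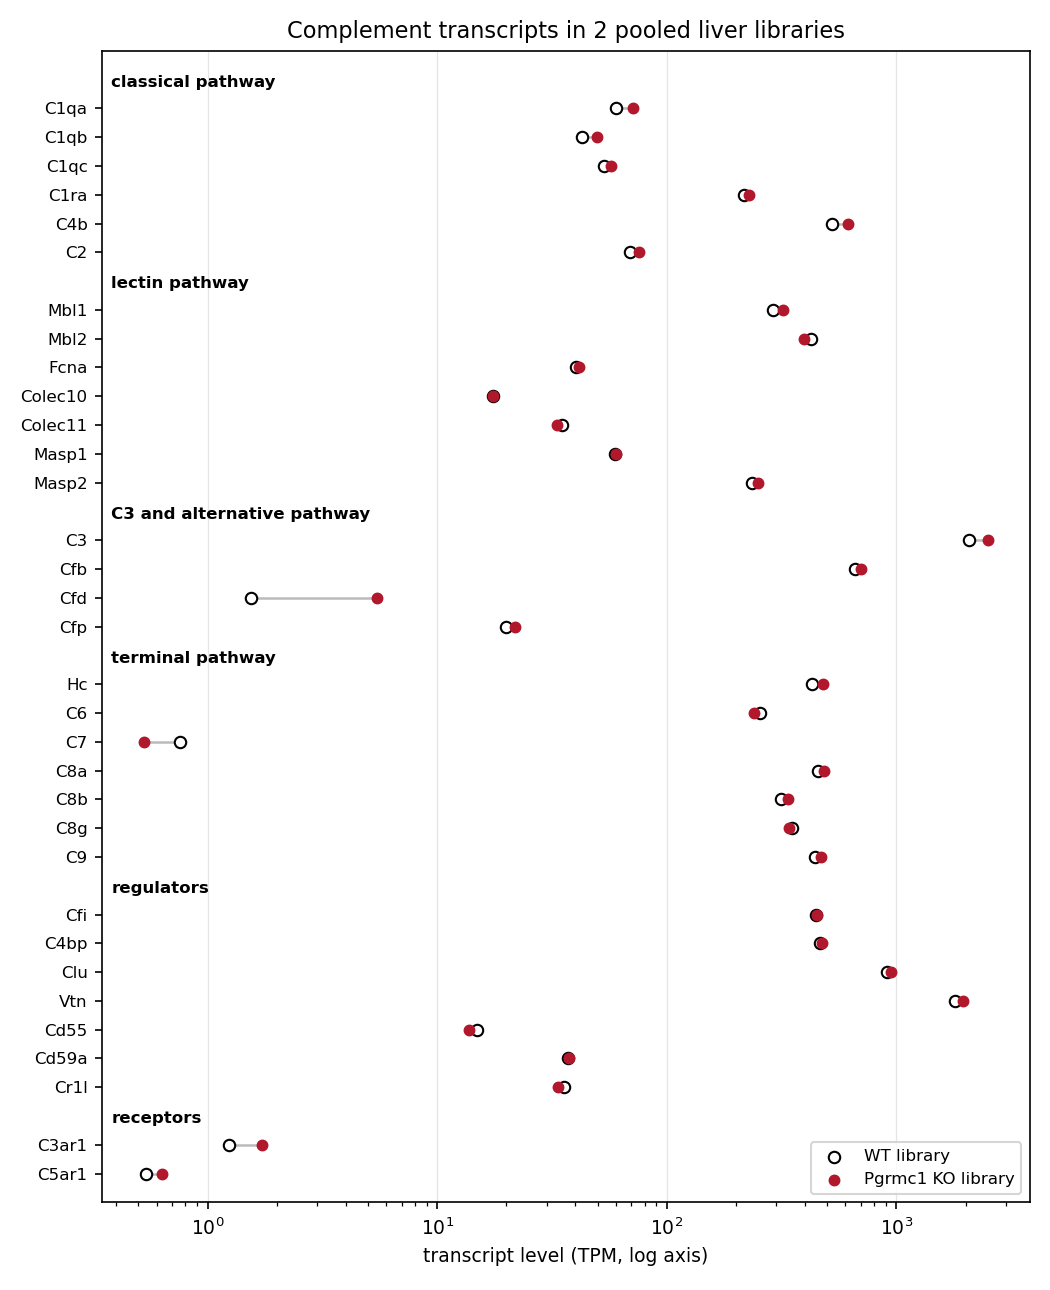
Levels of all 33 complement genes in TPM (log axis), in the WT library (open circles) and the Pgrmc1 KO library (filled circles), grouped by role. The levels span from 0.53 TPM for C7 to 2494.80 TPM for C3, both in KO, and for most genes the circles nearly touch.

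Of all members, C3 had the largest difference in TPM, 416.7. C3, on which all pathways converge, was the most abundant member in both libraries, at 2494.80 in KO against 2078.10 TPM in WT, a change of 0.26 (0.27 to 0.28 for the ratio of means). Its interval rests on 174642 and 194962 estimated reads, the most of any member. Cfb, the protease subunit of the alternative C3 convertase, was at 704.10 in KO against 657.09 TPM in WT, a change of 0.10 (0.09 to 0.14). The ratio of C3 to Cfb was 3.54 in KO and 3.16 in WT, and that of C3 to Cfi, whose protease inactivates C3b, was 5.53 and 4.67. Both ratios restate that the change of C3 was larger than that of Cfb and of Cfi (0.02). Cfp encodes properdin, which stabilises the convertase, and was at 21.81 in KO against 19.88 TPM in WT (0.13, -0.04 to 0.34).

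Cfd, the gene of factor D or adipsin, which cleaves factor B and is made mainly by fat cells, showed the largest change of all members. It was at 5.46 in KO against 1.55 TPM in WT, a change of 1.34, on 56 and 20 estimated reads. The log2 ratio of means was 1.92 (1.16 to 2.73), and a pseudocount of 0.1 TPM in place of 1 gave 1.75. Fat cell markers were set beside Cfd. Of 9 such markers other than Cfd, Adipoq, Lep, Plin1 and Cidea were all at or under 0.11 TPM in both libraries. Retn was at 0.39 in KO against 0.19 TPM in WT, on 1 and 0 estimated reads. The defining markers of fat cells were thus near 0 and too low to show a change. Among the 4 measured ones, changes ran from -0.62 for Fabp4 to 0.20 for Car3, which hepatocytes also express. The cell source of the Cfd difference was not tested. With 1 pool per genotype, it is unknown whether 1 mouse or several carried the higher Cfd level.

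To show the sequence in front of these genes, their RefSeq promoter windows (GRCm38.p6, 250 bases before to 50 after the start site) are printed for C3, the member with the largest difference in TPM, and for Cfd, the member with the largest change. Capitals mark a match to TTGCNNAA, a form of the C/EBP site, which lies 45 bases before the start site of C3; the window of Cfd has no match to any pattern searched.
C3, chr17:57228087-57228386, minus strand: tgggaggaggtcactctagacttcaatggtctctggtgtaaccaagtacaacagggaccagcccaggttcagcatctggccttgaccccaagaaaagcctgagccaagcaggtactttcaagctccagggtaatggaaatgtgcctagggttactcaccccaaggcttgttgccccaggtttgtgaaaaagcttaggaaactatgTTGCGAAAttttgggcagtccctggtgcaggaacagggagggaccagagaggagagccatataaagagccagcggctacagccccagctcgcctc
Cfd, chr10:79890603-79890902, plus strand: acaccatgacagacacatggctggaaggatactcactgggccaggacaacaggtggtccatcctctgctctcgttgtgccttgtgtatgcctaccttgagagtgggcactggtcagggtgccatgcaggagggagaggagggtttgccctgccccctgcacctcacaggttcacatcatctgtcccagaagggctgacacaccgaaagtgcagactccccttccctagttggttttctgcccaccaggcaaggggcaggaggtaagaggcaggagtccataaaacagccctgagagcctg

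The lectin pathway did not shift as a group. Its 7 genes had a median change of 0.02, 4 lay above 0, and their sum was 1116.4 in KO against 1098.6 TPM in WT. The mannose-binding lectins went in opposite directions. Mbl1 was higher in KO, at 319.58 TPM against 289.15 TPM in WT (0.14, 0.10 to 0.23). Mbl2 was lower in KO, at 396.20 TPM against 423.38 TPM in WT, a change of -0.10 (-0.13 to -0.02). Their ratio, Mbl2 to Mbl1, was accordingly 1.24 in KO and 1.46 in WT, and neither gene shares a window with another gene.

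The associated proteases, which cleave C4 and C2 once a lectin has bound, differed little. Masp2 was at 248.36 in KO against 234.05 TPM in WT (0.09, 0.05 to 0.17), and Masp1 at 59.94 in KO against 59.20 TPM in WT (0.02, -0.05 to 0.11). Fcna, a ficolin of macrophages, was at 41.65 in KO against 40.37 TPM in WT (0.04, -0.08 to 0.21). The collectins Colec10 and Colec11, found in stellate cells among others, were near level. Colec10 was at 17.48 in KO against 17.55 TPM in WT (-0.01, -0.11 to 0.12). Colec11 was at 33.18 in KO against 34.90 TPM in WT (-0.07, -0.21 to 0.10). For Masp1, Fcna and both collectins, a difference was not detectable at this depth.

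In the terminal pathway, 4 of the 6 measured genes lay above 0, with a median change of 0.08. Hc encodes C5, whose cleavage starts the membrane attack complex. It was at 478.71 in KO against 429.06 TPM in WT, a change of 0.16 (0.15 to 0.19). C6, which joins C5b next, was the exception with an interval below 0, at 239.65 in KO against 254.65 TPM in WT (-0.09, -0.11 to -0.04). The ratio of Hc to C6 was therefore 2.0 in KO and 1.68 in WT. C9, which forms the ring of the pore, was at 467.44 in KO against 443.25 TPM in WT (0.08, 0.06 to 0.13).

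C8 is built from 3 chains. C8a was at 485.01 in KO against 454.60 TPM in WT (0.09, 0.08 to 0.13), and C8b at 338.56 in KO against 314.81 TPM in WT (0.10, 0.08 to 0.16). These genes of the alpha and beta chains lie 11.1 kb apart on chromosome 4 and had a ratio of 1.43 in KO and 1.44 in WT. C8g, the gamma chain, on chromosome 2, was at 339.98 in KO against 351.37 TPM in WT (-0.05, -0.08 to 0.03). C7 was near the limit of detection, at 0.53 in KO against 0.76 TPM in WT, on 18 and 35 estimated reads, and its interval of -1.43 to 0.33 held 0. C6 and C7 lie 184.0 kb apart on chromosome 15, and only C6 was abundant.

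**Figure D3:**
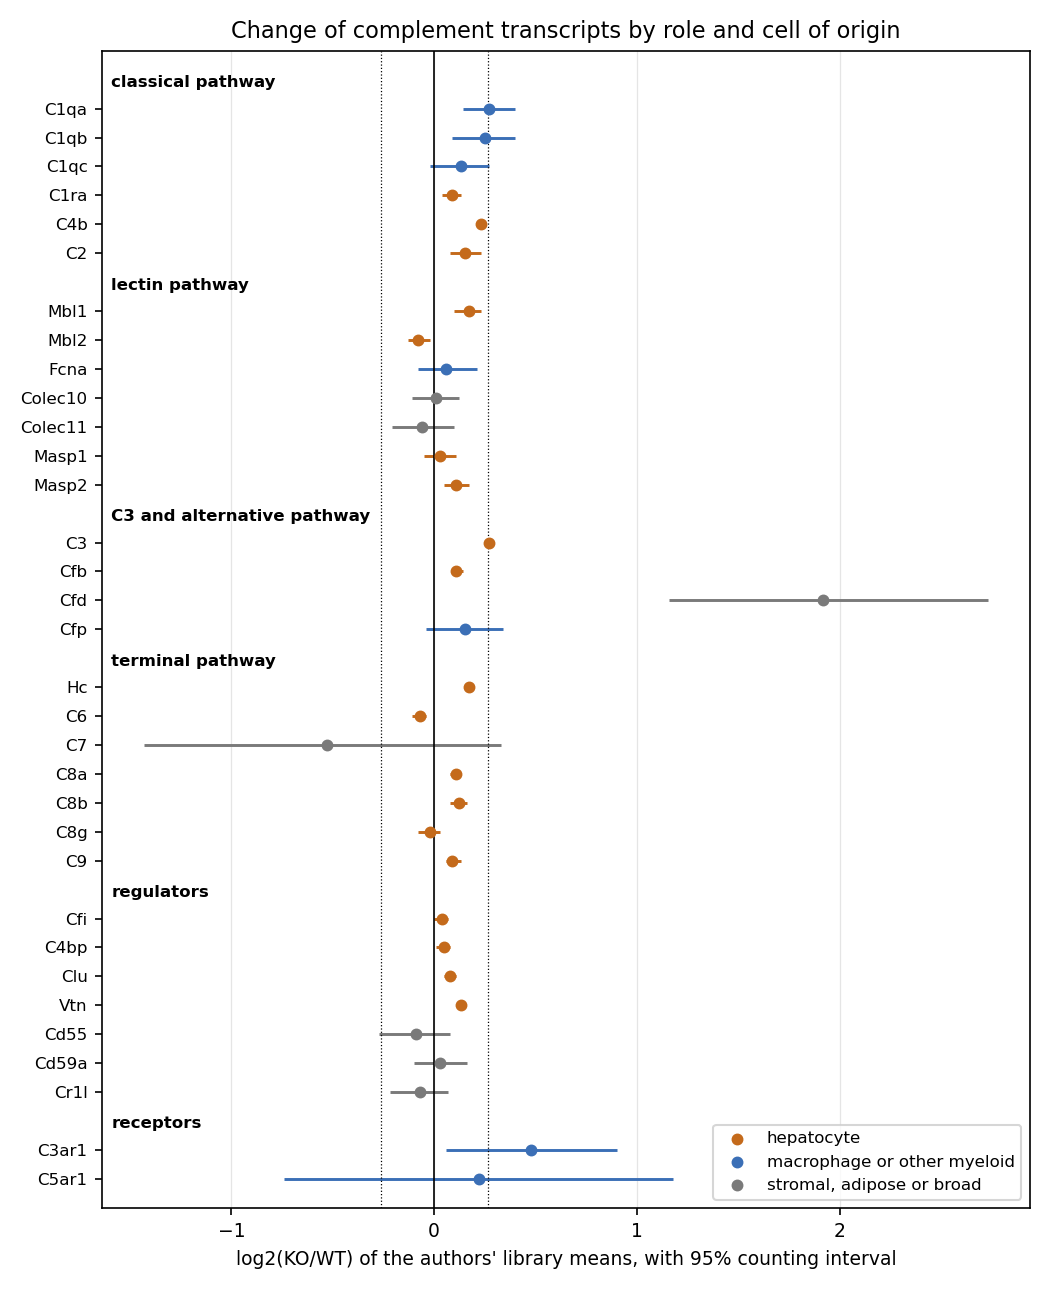
Log2 ratio (KO/WT) of the authors' library means for the 33 complement genes, with 95% counting intervals as bars, grouped by role and coloured by cell of origin; dotted lines mark 1.2-fold in either direction. The bars of C3 and C4b are narrower than their points, those of C7 and C5ar1 are the widest that cross 0, and Cfd lies at 1.92.

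Regulators keep complement from acting on the host's own cells, and their 7 genes had a median change of 0.02, the same as the lectin genes. Their sum was the largest of the branches, at 3912.2 in KO against 3701.6 TPM in WT. Vtn encodes vitronectin, which keeps the attack complex in solution. It was at 1950.48 in KO against 1796.14 TPM in WT, a change of 0.12 (0.12 to 0.15). Clu encodes clusterin, which binds the same complex, and was at 950.48 in KO against 908.85 TPM in WT (0.06, 0.05 to 0.11). The fluid-phase inhibitors of the convertases were nearly level, Cfi at 451.52 in KO against 444.78 TPM in WT (0.02), and C4bp at 475.02 in KO against 464.36 TPM in WT (0.03). The ratio of C4b to C4bp, whose protein binds C4b, was 1.29 in KO and 1.13 in WT.

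Membrane-bound regulators had lower levels. Cd55 speeds the decay of convertases and was at 13.78 in KO against 14.84 TPM in WT (-0.10, -0.27 to 0.08). Cr1l, the gene of the rodent regulator Crry, was at 33.44 in KO against 35.56 TPM in WT (-0.09, -0.22 to 0.07). Cd59a, which blocks the last step of pore formation, was at 37.49 in KO against 37.07 TPM in WT (0.02, -0.10 to 0.16). All of these intervals held 0. Cd59b, a near copy of Cd59a, was at 2.96 in KO against 1.62 TPM in WT on 25 and 18 estimated reads, and the sum of both changed by 0.06.

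The receptors of the anaphylatoxins C3a and C5a were scarce in whole liver. C3ar1 was at 1.72 in KO against 1.24 TPM in WT, a change of 0.28 (0.06 to 0.90), on 99 and 96 estimated reads. C5ar1 was at 0.63 in KO against 0.54 TPM in WT, on 19 and 22 estimated reads, and a difference was not detectable (-0.74 to 1.18).

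**Figure D4:**
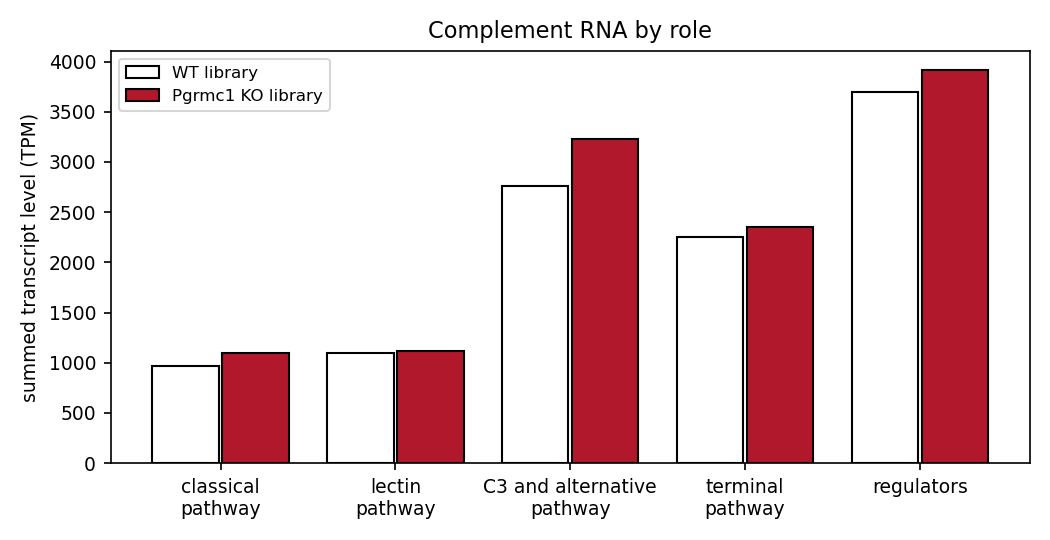
Summed TPM of the complement genes of each role in the WT and the Pgrmc1 KO library; the receptors, whose sums were 2.4 and 1.8 TPM, are not drawn. The KO bar is higher in each role, by 17.0% for C3 and the alternative pathway, 13.3% for the classical pathway and 1.62% for the lectin pathway.

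Members were then grouped by the cell known to make them. The 19 hepatocyte genes held 96.7% of the complement RNA in either library. Their median change was 0.09, with a range from -0.10 for Mbl2 to 0.26 for C3. Of the 19, 16 lay above 0, against 45.8% of all measured genes, and 15 had an interval above 0 and 2 below. The 7 genes of macrophages and other myeloid cells had a median of 0.18 over the 6 measured ones. All 6 lay above 0, against the same 45.8%, but only 3 had an interval above 0. With a minimum mean of 10 TPM, which leaves out C3ar1, the median was 0.13. The sum of the 7 was 243.9 in KO against 217.5 TPM in WT. The 7 genes of stromal, fat or many cell types had a median of -0.04, with 2 of 6 measured ones above 0, Cfd and Cd59a. Only Cfd among them had an interval above 0. Of all measured genes with estimated reads, 11.7% had an interval above 0 and 13.4% below. The difference between the groups was not tested.

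Other macrophage transcripts were set beside the C1q chains. Of 24 Kupffer cell and macrophage markers, a list without C1q, 18 lay above 0, against 45.8% of all measured genes, with a median change of 0.11, from -0.27 for Spic to 0.57 for Cd14, which is also on the acute phase list. Their summed level was 649.7 in KO against 613.1 TPM in WT, a ratio of 1.06, against 1.15 for the summed C1q chains. The interval lay above 0 for 9 of the 24 and below 0 for 2, Hmox1 and Slc40a1. Of all measured genes with estimated reads, 11.7% and 13.4% did so. The 9 were Emr1, Clec4f, Csf1r, Folr2, Cd5l, Cd163, Cd14, Mpeg1 and Lgmn. Clec4f, which marks Kupffer cells, changed by 0.19 (0.12 to 0.29). The intervals of Cd68 (-0.26, -0.63 to 0.09) and Lyz2 (-0.02, -0.13 to 0.13) held 0. In pooled tissue, more macrophages and more C1q RNA per macrophage cannot be told apart. Neutrophil markers were scarce: of 13 in the table, 3 were measured, the highest change was 0.36 for S100a9, and Mpo and Ltf were at or under 0.10 TPM in both libraries.

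Markers of other non-parenchymal cells had medians below 0. Of 13 stellate cell markers other than the collectins, 4 lay above 0, against 45.8% of all measured genes. Their median was -0.17, from -0.53 for Lum to 0.17 for Lrat. The interval lay below 0 for 6 of them and above 0 for 1, against 13.4% and 11.7% of measured genes with estimated reads. Of 13 endothelial markers, 0 lay above 0, with a median of -0.10 and Lyve1 lowest at -0.60. For 5 of the 13 the interval lay below 0 and for 0 above 0, beside the same 13.4% and 11.7%. Beside the stellate list, Colec10 and Colec11 changed by -0.01 and -0.07.

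**Figure D5:**
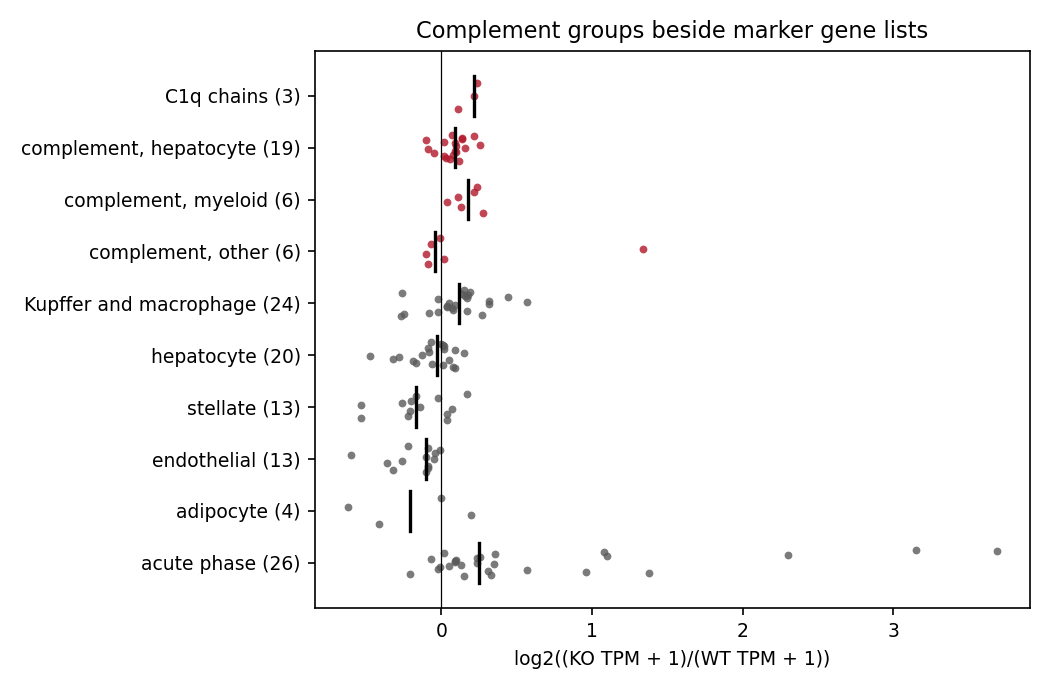
Log2 changes of complement genes by origin (red) and of marker and acute phase lists without members (grey), for measured genes; the number of genes is in brackets and the black bar is the median. The C1q chains lie at 0.11 to 0.24, within the range of the Kupffer cell and macrophage markers, while the acute phase list reaches 3.69.

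Hepatocytes make more C3, C4 and factor B during an acute phase response, so the members were set beside acute phase transcripts. Of 26 such measured genes, 22 lay above 0, against 45.8% of all measured genes. Their median was 0.25, from -0.21 for Hamp to 3.69 for Saa2. At 1.2-fold, 13 passed upward and 0 downward, against 5.39% and 5.51%. The interval lay above 0 for 21 and below 0 for 2, against 11.7% and 13.4% of measured genes with estimated reads. The hepatocyte complement genes, with a median of 0.09 and a highest change of 0.26, differed by far less than Saa1 and Saa2 (3.15 and 3.69). Acute phase genes with levels like those of C3 or Cfb spread from Orm1 (0.36) and Itih4 (0.35) over Hp (0.26) and Hpx (0.24) to Fga (0.10), Cp (-0.07) and Hamp. Of 16 genes of transcription factors and cytokine signalling linked to complement, 9 lay above 0, against 45.8% of all measured genes. Their median was 0.04, from -0.42 for Il1r1 to 0.31 for Socs3, which is also on the acute phase list. The interval lay above 0 for 7 of the 16 and below 0 for 4, against 11.7% and 13.4% of measured genes with estimated reads. Stat3, which mediates the response to IL-6, was at 53.47 in KO against 46.01 TPM in WT (0.21, 0.16 to 0.30). The IL-6 receptor gene Il6ra went the other way, at 33.14 in KO against 36.84 TPM in WT (-0.15, -0.24 to -0.05). Il6st, the gene of its signalling partner, changed by 0.05 (0.01 to 0.11). The part of an acute phase response in the complement changes was not tested.

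The rest of the pathway was covered by a list of 28 further genes, of which 27 were in the table and 20 were measured. Of these 20, 13 lay above 0, against 45.8% of all measured genes, with a median of 0.05. At 1.4-fold 2 passed upward, against 1.21%, and at 1.2-fold 3 passed upward and 1 downward, against 5.39% and 5.51%. The interval lay above 0 for 6 and below 0 for 4, against 11.7% and 13.4% of measured genes with estimated reads. Susd4, a regulator of C1 and of the C3 convertase, was highest at 15.71 in KO against 9.90 TPM in WT (0.62, 0.47 to 0.89). Cd59b followed with 0.60, though its interval of -0.02 to 1.87 held 0, then Apcs, the serum amyloid P gene, with 0.30 (0.22 to 0.43), and C4a was lowest. Serping1, the inhibitor of C1, was at 522.49 in KO against 485.47 TPM in WT (0.11). Cfhr2 was lower, at 600.51 in KO against 643.20 TPM in WT (-0.10), while Cpn1 (-0.06), Cpn2 (0.06), C1rl (-0.05), Cpb2 (-0.06) and F5 (0.02) lay at most 0.06 from 0. The pentraxin Crp was at 284.89 in KO against 308.85 TPM in WT (-0.12). The macrophage receptor genes Vsig4 (0.10, -0.05 to 0.30), Itgb2 (0.13, -0.12 to 0.47) and C5ar2 (0.19, -0.18 to 0.90) all had intervals that held 0, as had the mitochondrial protein gene C1qbp (0.09, -0.02 to 0.25). Cd93, which endothelial cells also express, was at 4.03 in KO against 4.91 TPM in WT (-0.23, -0.47 to -0.09).

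Some members are neighbours on a chromosome. In the class III region of the major histocompatibility complex on chromosome 17, C4b (34728139 to 34743902), Cfb (34856374 to 34862514) and C2 (34862602 to 34882100) were all higher in KO, by 0.22, 0.10 and 0.14. Only 88 bases separate Cfb and C2, and 66.9% and 35.5% of their windows are found in Gm20547, a gene model that spans both and is not in the TPM table. On chromosome 1, Cd55 and C4bp lie 171.0 kb apart and changed by -0.10 (-0.27 to 0.08) and 0.03 (0.01 to 0.08). These intervals overlap, so the values do not show that the 2 genes differed from each other.

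RefSeq promoter windows were found for 25 of the 33 members, in 26 windows of 300 bases. C1qa, C4b, C2, Colec10, Masp1, Cfb, Cfi and Clu had no window and were not searched. The start sites of Cd55, Fcna, Hc and Masp2 lie more than 2 kb inside their RefSeq genes. On either strand, the STAT pattern TTCNNNGAA was found for 6 of the 25 genes (24.0%), C1ra, C7, C8a, Colec11, Masp2 and Vtn, and in 8.3% of 32851 windows of all genes. Among the measured ones, changes ran from -0.07 for Colec11 to 0.12 for Vtn, and C7, which was not measured, had -0.20. A link between the pattern and the changes was not tested. C1qa (0.24) and C4b (0.22) are among the genes without a window. The C/EBP pattern was found for C1ra, C3 and C9 (12.0%, against 10.8% of windows), and the HNF1 pattern GTTAATNAT for C4bp and Hc (8.0%, against 0.801%). The NF-kB pattern GGANTTTCC and the HNF4 pattern CAAAGTCCA, which 1.25% and 0.475% of windows hold, were found for none of the 25. The window of Vtn, the second most abundant member, is printed with its STAT match in capitals, 35 bases after the start site.
Vtn, chr11:78498870-78499169, plus strand: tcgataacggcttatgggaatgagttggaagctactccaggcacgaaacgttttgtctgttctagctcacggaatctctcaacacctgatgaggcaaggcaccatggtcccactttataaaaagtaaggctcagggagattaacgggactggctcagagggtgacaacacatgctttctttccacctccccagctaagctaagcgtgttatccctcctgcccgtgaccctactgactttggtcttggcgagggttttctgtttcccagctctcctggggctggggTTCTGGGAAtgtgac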

How the data were processed

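Liver RNA of male Pgrmc1 KO and WT mice was pooled by genotype, sequenced after a stranded total RNA preparation and aligned to mm10 with RSEM 1.2.09 and Bowtie. The authors deposited posterior mean TPM for 24054 genes, in which a scaling between libraries is already present. A second deposited table gives, for 16318 genes, the signal of each library as the authors' mean (estimated reads divided by a size factor of EBSeq). That deposited table also holds the authors' own comparison, posterior probabilities as a fraction and fold changes as a ratio, which were not used.

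Members, gene lists, cells of origin and tests were chosen with earlier results of these data known. Changes were computed with a pseudocount of 1 TPM, and summaries used measured genes, those that average 1 TPM or more. The thresholds of 1.4 and 0.6 follow the study's rule for RNA, without its probability, and 1.2 follows its rule for proteins. With 1 library per genotype, no test was run. TPM keep no depth, but the most frequent value of the authors' means, 1.162 in KO and 0.86 in WT, was taken as 1 read, which gave 22086692 and 29710419 estimated reads. Within 0.02, 78.4% and 75.0% of values were whole, since RSEM splits reads, so a count test on recovered reads was not run. Of the 33 members, 17 had a whole value in KO and 10 in WT. Estimated reads were rounded to whole numbers before the intervals were computed. The scripts were tested on simulated data. Named genes were all members, Pgrmc1, measured other complement genes (some are not reported here), and the highest and lowest gene of each other list with markers near 0. Clec4f, Cd68, Lyz2, Hmox1, Slc40a1, Stat3, Saa1, Orm1, Itih4, Hp, Hpx, Fga, Cp and the near copies were chosen after their values were seen. So were Il6ra, Il6st, Emr1, Csf1r, Folr2, Cd5l, Cd163, Mpeg1 and Lgmn. Coordinates and promoters are those of RefSeq on GRCm38.p6, and shared windows of 100 bases those of GENCODE M21. Alternatives were another pseudocount, other minimum levels and thresholds, the authors' means, centring, rescaling and sums with near copies. Scripts ran under numpy 2.4.6 and Python 3.11.15, intervals came from scipy 1.17.1, tables from pandas 2.3.3 and figures from matplotlib 3.10.9.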

Additional observations from a re-analysis of the deposited data

How the results depend on the processing

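No paired analysis was possible because a single pooled library stands for KO and another for WT. The alternatives run on counts and medians left 91 values the same by the rule used and moved 4. With a minimum mean of 10 TPM, which leaves out Cfd and C3ar1, 0 members passed 1.4-fold upward and 1 passed 1.2-fold. The log2 ratio of the summed level went from 0.12 to 0.05 without the 5 most abundant members and to 0.18 with the authors' means, which are not per length and so weigh long transcripts such as C3 and C4b more. Of the values of single members, 133 moved by no more than their counting error. C3 moved to 0.27 with the authors' means and to 0.28 after centring, and Colec10, at -0.01, had a value of 0.01 in both. Under the scalings, all measured genes had a median from -0.015 to 0, so that these alternatives barely move the line at 0. Depth limits C7, C5ar1, C3ar1 and Cfd, which have under 100 estimated reads in each library; for the abundant members pooling is the limit, and differences between mice cannot be told apart from genotype here.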
